A study of Zea mays with 10 samples.

Results

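Among the named genes of a maize stem array series, 49 were both bright and steady, and they are described here. A gene belonged to the set when its mean log2 value over the 10 arrays was 9 or more and the gap between its highest and its lowest array, its range, was 0.6 or less. A range of 0.6 on the log2 scale is a 1.52-fold difference. The annotation named 1108 genes, of which 292 reached the mean, not counting the lignin gene bm1, which was left out beforehand. The 49 steady genes were 16.8% of those 292. The probe set of highest mean stood for a gene that had more than 1. The values that chose the genes were the means and ranges over all arrays, so brightness and small ranges below are descriptions and not findings.

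Most of the 39 steady genes with a role given here belong to the maintenance machinery that every growing plant cell runs. It covers protein synthesis, the breakdown of sugars, mitochondrial ATP supply, the actin and tubulin skeleton, protein folding and secretion, and sulfur and purine metabolism. Many bright genes outside the set belong to such machinery as well. In a maize stem these functions serve elongating internodes, where cells enlarge and then deposit lignified walls. Several of the genes, such as those of cytosolic glyceraldehyde-3-phosphate dehydrogenase, beta-tubulin and elongation factor 1 alpha, come from families often used as references in expression studies. Many of these families hold other copies that are regulated by tissue.

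The arrays held total RNA of untreated stems from 5 inbred lines, with 2 arrays per line and RNA pooled from 5 plants behind each array. The lines labelled Flint-Dent were F7025, given as Iodent crossed with F113bm3, F7033, given as Lorena crossed with F252 and again with F252, and Cm484, from 200-2-1. F98902, from Iodent, is labelled Dent, and F2, from lacaune, is labelled Flint. All lines had the same planting day, and the labels do not say whether F7025 carries the brown midrib allele bm3. Nothing in the labels places the pools in separate plots, so the p-values cover the variation from pool to pool only, part of which may be technical. The amount of RNA is given as 20 µg for replicate 2 of F98902, F2 and Cm484 and as 60 to 100 µg for the other 7 arrays. In bulk stems, fewer cells of a type and less RNA per cell cannot be told apart. Genes of secondary walls (cesa10, cesa11, CesA12 and bk2) read 9.00 to 12.04, and 5 genes of leaf photosynthesis read 6.87 to 13.49. Of 7 genes of kernel storage and starch, 5 were under 4 on every array. Replicates of a line correlated over the tested probe sets, which share their arrays, with r from 0.965 in F98902 to 0.993 in F2. The 2 pools of F98902 differed most for these genes too: their median absolute difference over the 49 was 0.142, against 0.0588 to 0.0842 in the other lines.

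The 49 genes had means from 9.06 to 13.96 and a median range of 0.46, or 1.38-fold between the highest and the lowest array. The other 243 bright named genes had a median range of 1.23 and reached 9.65. Bright probe sets with no gene name here met the same range limit about as often as named ones: 363 of 2130, or 17.0%. The share of genes within the limit was highest among the brightest genes. It was 12.4% (15 of 121) for means of 9 to 10, 9.86% (7 of 71) for 10 to 11, 17.2% (10 of 58) for 11 to 12, 35.5% (11 of 31) for 12 to 13 and 54.5% (6 of 11) for 13 and above. The highest values of the arrays themselves were 14.28 to 14.53, and the highest value of a steady gene was 14.09. The part that this upper end of the scale plays in small ranges was not tested. Signals of different probe sets depend on their probes, and the means are not ranked here as amounts of RNA.

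**Figure D1:**
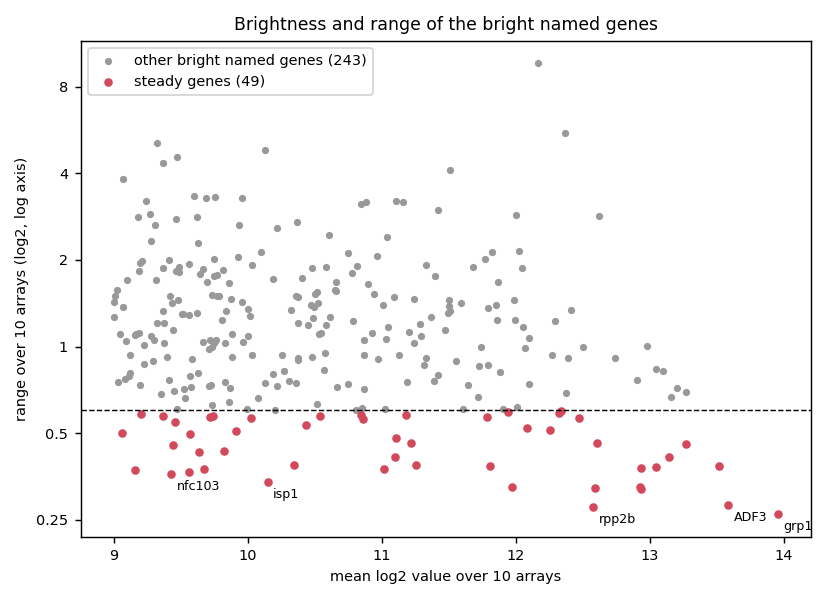
Mean log2 value over the 10 arrays (x axis) against the range over the same arrays (y axis, log scale) for the 292 bright named genes, with the range limit of 0.6 as a dashed line. The 49 steady genes (red) lie below the line by definition, and the smallest range, 0.26, belongs to grp1, the brightest of them.

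Close to the limits, the choice of members rested on small differences. Just inside the range limit were tub3 (0.579), LOC541940 (0.584), ubc7 (0.586), OBF1 (0.59) and PRO5 (0.597). Just outside were paa (0.602), m26 (0.603), gpm436 (0.605), the kinase gene mek1 (0.605) and cys2 (0.606). Just inside the brightness limit were copz1 (mean 9.06), vacs1 (9.16), LOC541940 (9.20), eIF4E1 (9.36) and nfc103 (9.43). Just below it were rld2 (9.00 when rounded, range 0.26), LOC542696 (8.95), mbd105 (8.84), magi50422 (8.79) and LOC541781 (8.67). The gene rld2, a relative of the steady regulator rld1 by its symbol, thus missed the set by its brightness alone.

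Protein synthesis supplied 7 of the 49 genes, with TCTP counted among them although its name does not make it a translation factor. Both eIF5A genes were present, eif5a (LOC542537) and tif5A (LOC542601), which encode a factor that carries the modified residue hypusine and helps ribosomes through difficult stretches. The gene eif5a read 13.05 and 13.10 in F7025, 12.99 and 12.96 in F7033, 12.86 and 12.78 in F98902, 12.92 and 12.86 in F2, and 12.92 and 12.93 in Cm484. The gene tif5A read 12.69 and 12.70 in F7025, 12.70 and 12.73 in F7033, 12.63 and 12.43 in F98902, 12.41 and 12.45 in F2, and 12.56 and 12.58 in Cm484. Both were highest in F7025 or F7033, and their lowest values lay in F98902 and F2. The gene rpp2b (LOC542340), for an acidic protein of the ribosomal stalk, read 12.64 and 12.64 in F7025, 12.47 and 12.42 in F7033, 12.70 and 12.51 in F98902, 12.53 and 12.57 in F2, and 12.70 and 12.59 in Cm484. Both F7033 pools lay below every other array. TCTP, for the translationally controlled tumour protein that occurs throughout eukaryotes, read 13.44 and 13.57 in F7025, 13.34 and 13.37 in F7033, 13.52 and 13.46 in F98902, 13.51 and 13.73 in F2, and 13.60 and 13.61 in Cm484. Again both F7033 arrays were lowest, and the second F2 array was highest.

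Other translation factors completed this group. The elongation factor 1 alpha genes elfa2 and elfa3, whose product brings aminoacyl-tRNA to the ribosome, ranged from 11.61 to 11.995 (median 11.80) and from 11.81 to 12.33 (median 12.09). Their probe sets are of a type (suffix x) whose probes can also bind related transcripts, so the copies of this near-identical family cannot be told apart with certainty. The cap-binding factor gene eIF4E1 ranged from 9.08 to 9.66 (median 9.38). All 4 arrays of F7025 and F7033 were below the other 6, and the largest gap between line means, 0.502, was among the widest in the set.

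RNA and chromatin functions gave 6 genes. The gene grp1 (LOC542725), by its symbol a glycine-rich protein, had the smallest range of all, 0.262. It read 13.91 and 13.83 in F7025, 14.09 and 13.98 in F7033, 14.03 and 13.96 in F98902, 13.92 and 13.85 in F2, and 13.97 and 14.03 in Cm484. The 4 arrays of F7025 and F2 lay below the other 6, although the highest and lowest arrays were only 1.20-fold apart. Its probe set (suffix s) can bind transcripts of several related genes. MNB1b, for a chromatin protein with an HMG box, read 12.87 and 12.92 in F7025, 13.14 and 13.20 in F7033, 12.99 and 13.25 in F98902, 13.14 and 13.05 in F2, and 12.87 and 13.05 in Cm484. The pools of F98902 were nearly as far apart (0.261) as the most distant line means (0.278). The gene nfc103 (LOC542545), of the nucleosome and chromatin assembly factors, read 9.42 and 9.27 in F7025, 9.63 and 9.64 in F7033, 9.48 and 9.43 in F98902, 9.37 and 9.42 in F2, and 9.34 and 9.29 in Cm484, with both F7033 arrays on top.

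Regulators were part of the steady set as well. The bZIP factor gene OBF1, whose product binds ocs elements, ranged from 11.58 to 12.17 with a median of 12.02, and its lowest arrays were the second pools of F7025 and Cm484. The HD-ZIP gene rld1, which in maize marks the upper side of leaf primordia, ranged from 9.23 to 9.68 with a median of 9.48. The gene hsbp1 (also called emp2), for a protein that binds heat shock factors and is needed in maize kernels, ranged from 9.48 to 9.85 with a median of 9.67.

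Carbon and energy metabolism gave 8 genes. Both enolase genes named by the annotation were members, as were both adenine nucleotide translocators, while cytosolic glyceraldehyde-3-phosphate dehydrogenase had 2 of its 4 genes in the set. The gene gpc2 (LOC542718) read 12.80 and 12.75 in F7025, 12.98 and 13.04 in F7033, 13.08 and 12.91 in F98902, 13.05 and 13.00 in F2, and 12.80 and 12.86 in Cm484. F7025 and Cm484 lay below the other 3 lines on every array. The gene gpc1 ranged from 12.39 to 12.86 (median 12.57), and there Cm484 was among the high lines and F2 among the low ones. The enolase genes eno1 and eno2, for the glycolytic step before pyruvate kinase, ranged from 12.78 to 13.16 (median 12.91) and from 11.10 to 11.49 (median 11.23). The highest arrays of eno1 were those of F7025, whereas eno2 had its lowest line mean in F7025 and its highest in F2.

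Mitochondrial ATP supply was represented at several steps. The gene isp1 (LOC542550), for the Rieske iron-sulfur protein of respiratory complex III, read 10.03 and 10.10 in F7025, 10.22 and 10.19 in F7033, 10.25 and 9.91 in F98902, 10.23 and 10.14 in F2, and 10.18 and 10.22 in Cm484. Its line means lay within 0.136 of each other, the smallest gap in the set, while the pools of F98902 differed by 0.338. The gene ATP2, for the beta subunit of the mitochondrial ATP synthase, ranged from 10.84 to 11.33 with a median of 11.13. The genes ANT1 and ANT2, whose products exchange ADP and ATP across the inner membrane, ranged from 11.00 to 11.46 (median 11.17) and from 10.85 to 11.27 (median 11.13). Both translocators had their lowest line mean in F7033, but ANT1 was highest in Cm484 and ANT2 in F98902.

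The cytoskeleton gave 4 genes. The gene ADF3 (LOC542445), for an actin-depolymerizing factor, read 13.62 and 13.44 in F7025, 13.60 and 13.56 in F7033, 13.71 and 13.62 in F98902, 13.72 and 13.68 in F2, and 13.46 and 13.47 in Cm484. Both Cm484 arrays lay below those of F7033, F98902 and F2, and the second F7025 array was the lowest of all. The profilin gene PRO4 (LOC541662), for a protein that binds actin monomers, read 12.20 and 11.97 in F7025, 11.93 and 11.997 in F7033, 11.99 and 11.99 in F98902, 11.93 and 11.95 in F2, and 11.87 and 11.89 in Cm484. A single array, the first of F7025, stood above the other 9. The profilin gene PRO5 ranged from 12.05 to 12.64 (median 12.31) with F7025 on top, and the beta-tubulin gene tub3 from 10.56 to 11.14 (median 10.82) with F7033 and F98902 lowest. The annotated ADF and profilin genes outside the set, adf1, adf2, prf1, prf2 and prf3, were at the floor of the scale on all arrays, at 2.10 to 2.56.

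Folding, secretion and protein turnover gave 5 genes. The gene CNX, by its symbol calnexin, a chaperone of the endoplasmic reticulum, ranged from 10.18 to 10.75 (median 10.58). The disulfide isomerase gene pdi6 ranged from 9.55 to 9.98 (median 9.88), with both Cm484 arrays at the bottom. The gene copz1, for the zeta subunit of the COPI vesicle coat, ranged from 8.83 to 9.32 (median 9.05), and arf1, by its symbol an ADP-ribosylation factor, the class of GTPase that recruits this coat, from 11.99 to 12.51 (median 12.23). Both copz1 and arf1 had their highest array in the second pool of F2. The ubiquitin-conjugating enzyme gene ubc7 ranged from 11.97 to 12.56 (median 12.43), and F7025 read lowest on both of its arrays.

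Redox, sulfur, nitrogen and other metabolism gave 7 genes. The sulfur pathway was represented by sir, the sulfite reductase gene, which ranged from 9.50 to 10.07 (median 9.70), and by sat3 (LOC542499), whose product acetylates serine for cysteine synthesis. The latter read 9.53 and 9.52 in F7025, 9.53 and 9.70 in F7033, 9.51 and 9.40 in F98902, 9.68 and 9.77 in F2, and 9.52 and 9.45 in Cm484. Both genes had their highest line mean in F2. The glyoxalase I gene glx1 (LOC542115), for an enzyme that detoxifies methylglyoxal, read 10.99 and 10.85 in F7025, 11.19 and 11.23 in F7033, 11.10 and 10.85 in F98902, 11.08 and 11.05 in F2, and 10.92 and 10.93 in Cm484. F7033 lay above every other array. The thioredoxin gene trxh1, for a small protein that reduces disulfides, ranged from 12.10 to 12.66 (median 12.54), and both F7025 arrays were below all others.

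The remaining metabolic genes reached into purine, amine and phenylpropanoid synthesis. The adenylosuccinate synthetase gene adss1, of AMP synthesis, ranged from 9.32 to 9.82 (median 9.56), and the aminoaldehyde dehydrogenase gene AMADH1b from 9.81 to 10.37 (median 9.99), with both F2 arrays on top. The gene pal3 (LOC542258), for phenylalanine ammonia-lyase, the enzyme that opens the route to lignin, was the only annotated gene matched by a symbol of that family. It read 13.05 and 13.03 in F7025, 13.15 and 13.12 in F7033, 13.33 and 13.42 in F98902, 13.04 and 13.15 in F2, and 13.01 and 13.14 in Cm484, and F98902 lay above every other array. Membrane and signalling functions gave 2 genes, the aquaporin gene PIP1-1, from 11.43 to 11.996 (median 11.80), and prh1, for a protein phosphatase of type 1, from 10.17 to 10.56 (median 10.35).

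For 10 of the 49 genes no role is given here. The gene csu503(met) (LOC541942) read 13.42 and 13.23 in F7025, 13.27 and 13.23 in F7033, 13.21 and 13.34 in F98902, 13.46 and 13.50 in F2, and 13.04 and 13.06 in Cm484, where Cm484 was lowest and F2 highest. The gene vacs1 (LOC542350) read 9.12 and 9.02 in F7025, 9.39 and 9.30 in F7033, 9.14 and 9.16 in F98902, 9.16 and 9.19 in F2, and 9.04 and 9.05 in Cm484, with F7033 highest. The others were pco108516, pco067871, IDP1619, LOC542441, LOC541984, LOC542160, LOC542172 and LOC541940, with means of 9.20 to 11.18 and ranges of 0.431 to 0.584.

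**Figure D2:**
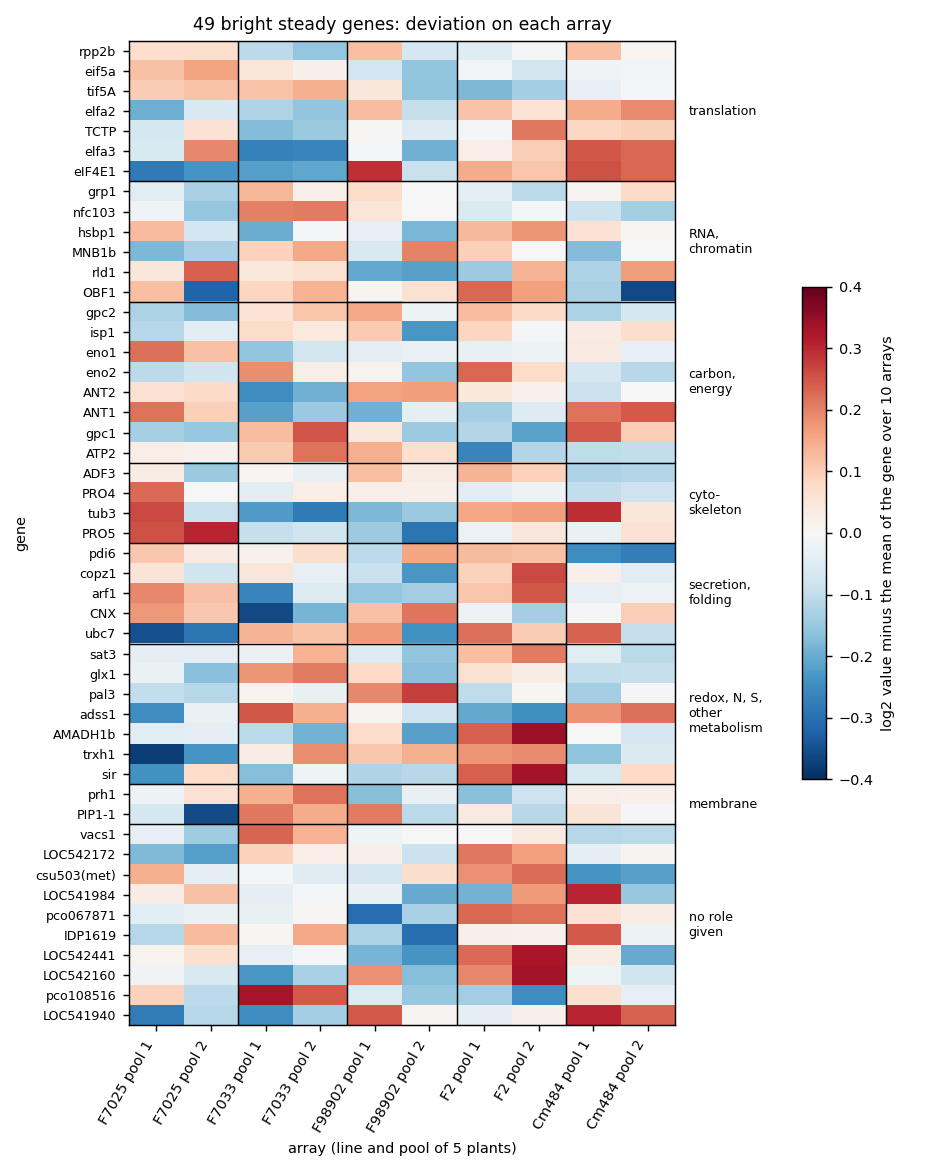
Deviation of each of the 49 genes from its own mean over the 10 arrays (colour, log2), with arrays in columns by line and pool and genes in rows by role. Pools of the same line mostly share a colour, as in the blue F7025 cells of trxh1 and the red F2 cells of sir, and the F98902 pools differ most in 22 rows.

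In most of the genes the largest gap between line means exceeded the largest gap between pools. The largest gap between line means had a median of 0.351 over the 49 genes and ran from 0.136 to 0.508. The largest gap between the 2 pools of a line had a median of 0.205 and ran from 0.0802 to 0.458. The gap between lines was the larger in 46 genes, and the exceptions were isp1, PRO4 and LOC541984. No share over all tested probe sets stands beside this count, so it is not read as a trait of these genes. The 2 gaps are unlike measures. The 5 line means offer more pairs to compare than 5 pairs of pools do, but each line mean averages 2 arrays. The shares of variation were therefore not measured. F98902 held the widest pool gap in 22 genes and F7025 in 13, against 3 to 6 in each other line. By array, the second F98902 array was the lowest of all in 11 genes, and the second F2 array the highest in 11. Over all tested probe sets these 2 arrays deviated in the same directions, by medians of −0.07 and 0.09, so this is not particular to the set. Both carried 20 µg of RNA, as did the second Cm484 array, which was lowest in 2 and highest in 2. Arrays with more RNA also stood out. With 60 µg, the first F7033 array was lowest in 9 genes and each F7025 array in 8. The first Cm484 array, with 90 µg, was highest in 7. The part of RNA amount was not tested.

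The moderated F-test of limma, fitted over all 11067 tested probe sets, put 18 of the 49 genes past an adjusted p of 0.05, against 73.9% of tested probe sets. All 49 had passed the filter on dim values. Since the set was chosen on the range over the same arrays, nothing is read from that difference. The gap in counts for the other bright named genes, 214 of 243, is fixed by the choice in the same way. The 18 were ANT1, ANT2, gpc1 and ATP2, the translation factor genes elfa3 and eIF4E1, trxh1, pal3, adss1, PRO5, CNX, arf1 and 6 genes without a role, csu503(met), pco067871, pco108516, LOC542441, LOC542172 and LOC541940. Their largest gaps between line means ran from 0.339 in arf1 to 0.508 in elfa3. The count depended on the arrays kept: it fell well below 18 without either array of F7033, F2 or Cm484. Without an F7025 or F98902 array it stayed close to 18 or rose. It was 1 without the 3 arrays of least RNA, an alternative added once the values were known, and that gene was not among the 18. The genes not past the threshold are not shown to be equal among the lines.

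Each line was also set against the mean of the other 4 in the same limma fit, and 28 of the 49 genes passed in at least 1 line, against 81% of tested probe sets. Among 245 gene and line pairs, 38 passed, with differences between 0.203 and 0.401 in size, so the widest was 1.32-fold. In F7025, 2 were higher and 4 lower, where 37.4% of tested probe sets were called (16.6% higher, 20.8% lower). In F7033, 6 were higher and 5 lower, where 45.4% were called (22.2% and 23.2%), and in F98902 2 and 3, where 44% were called (20.7% and 23.3%). In F2, 8 were higher and 3 lower, where 43.2% were called (25.4% and 17.7%), and in Cm484 3 and 2, where 36.9% were called (18.4% and 18.5%). Over all tested probe sets, the median difference of F2 from the other lines was 0.10, 0.05 with quantile normalization and 0.07 with arrays centred on their medians. Scaling moved these splits. With quantile normalization F7025 had 2 higher and 3 lower, F7033 7 and 6, and F2 6 and 4. With centring F7025 had 2 and 1, F7033 6 and 3, and F2 5 and 2. Under both, F98902 had 1 and 3 and Cm484 3 and 2. The count of genes passing in a line fell well below 28 without either array of F7033, F2 or Cm484, and stayed close to 28 without an F7025 or F98902 array. It was 3 without the 3 arrays of least RNA.

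The differences that passed crossed the functional groups. In F7025, PRO5 was 0.35 ± 0.07 (SE) log2 higher and eno1 0.21 ± 0.07 higher, while ubc7, trxh1, eIF4E1 and LOC542172 differed by −0.40 ± 0.12, −0.38 ± 0.08, −0.32 ± 0.10 and −0.25 ± 0.08. In F7033, gpc1, nfc103, glx1, prh1, vacs1 and pco108516 were higher by 0.23 to 0.36 and CNX, elfa3, tub3, ANT2 and ANT1 lower, with CNX at −0.34 ± 0.08. By role, against 81% of tested probe sets, 2 of 7 translation genes passed in some line, 1 of 6 for RNA and chromatin (nfc103), 5 of 8 for carbon and energy, 2 of 4 for the cytoskeleton, 3 of 5 for secretion and folding, 6 of 7 for redox and other metabolism, 1 of 2 for membrane and signalling and 8 of 10 without a role. These groups were not tested against each other. In F2, AMADH1b and sir were highest above the others, at 0.37 ± 0.09 and 0.36 ± 0.10, and trxh1, csu503(met), pco067871, LOC542441, LOC542160 and LOC542172 were 0.23 to 0.35 above them, while adss1, ATP2 and pco108516 differed by −0.28 ± 0.09, −0.24 ± 0.07 and −0.24 ± 0.08. In F98902, pal3 was 0.29 ± 0.07 and ANT2 0.20 ± 0.07 higher, and PRO5, pco067871 and LOC542441 lay between −0.27 and −0.26. In Cm484, ANT1, elfa3 and LOC541940 were 0.29 ± 0.08, 0.30 ± 0.09 and 0.34 ± 0.10 higher, and pdi6 and csu503(met) differed by −0.33 ± 0.09 and −0.28 ± 0.08. Of the 38 differences, PRO5 in F7025 passed in all 18 other settings run, and each of the other 37 missed the threshold in at least 1. No sign turned in any setting. These sizes are descriptions too, because the range limit bounds them.

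**Figure D3:**
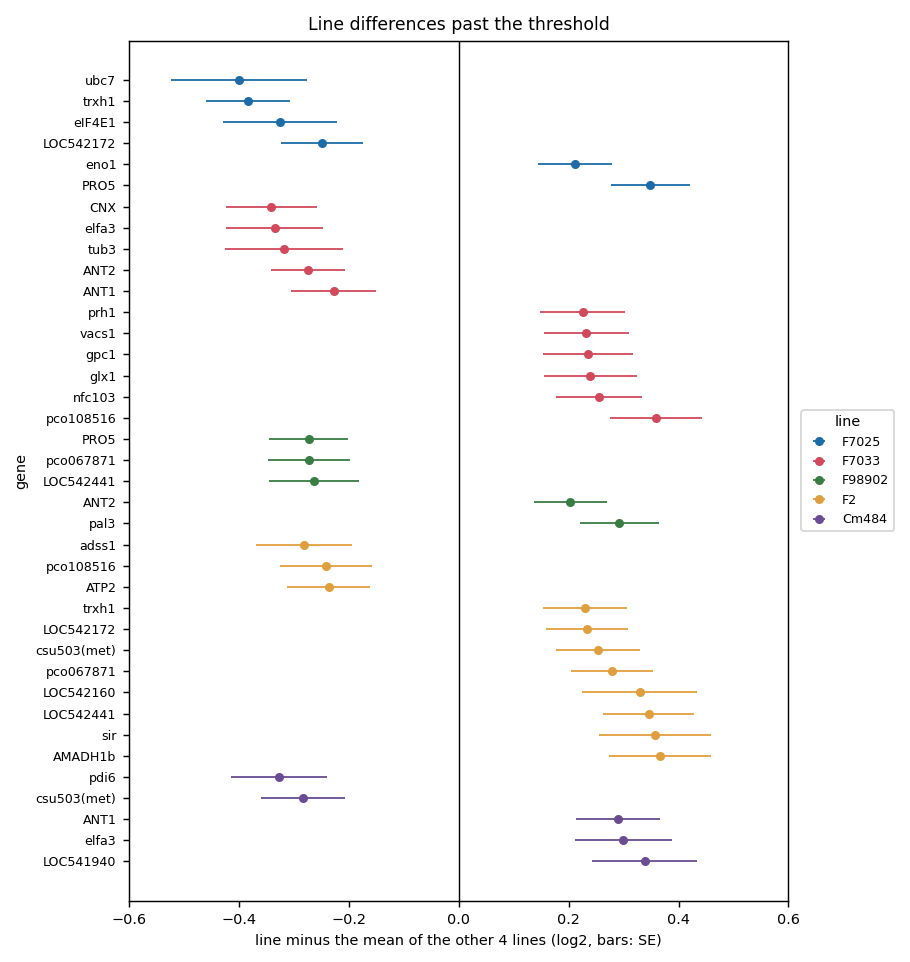
The 38 line differences past an adjusted p of 0.05 in limma, each line minus the mean of the other 4 lines on the log2 scale (points, with SE bars from the fit on 10 arrays), coloured by line. All lie between −0.40 and 0.37, and the F2 points are mostly on the positive side.

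A further readout came from the probe sets that did not stand for their gene. Their ranges played no part in the choice, but their means did, since the brightest probe set was kept. Of the 49 genes, 19 had 43 further probe sets, and 21 of these, from 14 genes, also had a mean of 9 or more. Among the 21, 12 had a range of 0.6 or less, and the median range was 0.57. Among further bright probe sets of the other bright genes, 2 of 56 were within 0.6 and the median was 1.23. The limma F-test called 12 of the 21 (73.9% of all tested probe sets) and 49 of those 56. The probe sets of a gene share its RNA, arrays and often probes, and 12 of the 21 carry the same cluster and sub-cluster number as the set's own, so they are not independent repeats and the comparison is given without a test.

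Agreement differed by gene. All bright probe sets of 7 genes stayed within 0.6: ADF3, TCTP, MNB1b, elfa3, tif5A, eno1 and CNX. In 7 others at least 1 did not: ubc7, csu503(met), glx1, OBF1, pco067871, LOC542441 and LOC541984. For ubc7, the 3 further bright probe sets had ranges of 0.834, 0.941 and 1.28, and the set's own probe set was of type x. For glx1, one had a range of 0.241 and another 0.799.

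The widest disagreement was in the sulfite reductase gene. A second sir probe set, of the type shared between transcripts, read 6.15 and 6.20 in F7025, 5.78 and 6.90 in F7033, 9.44 and 9.63 in F98902, 5.10 and 5.11 in F2, and 7.44 and 8.22 in Cm484. The F98902 arrays were far above all others and those of F2 at the bottom, a range of 4.53 (limma F-test adjusted p = 0.000112). The probe set that stands for sir ran from 9.50 to 10.07 on the same arrays with F2 on top. Which transcripts the second one binds cannot be told from the files used here. Among further probe sets dimmer than 9, 11 averaged under 4, among them sets of MNB1b, eno1, grp1 and glx1 whose brightest probe set averaged 11.02 to 13.96.

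**Figure D4:**
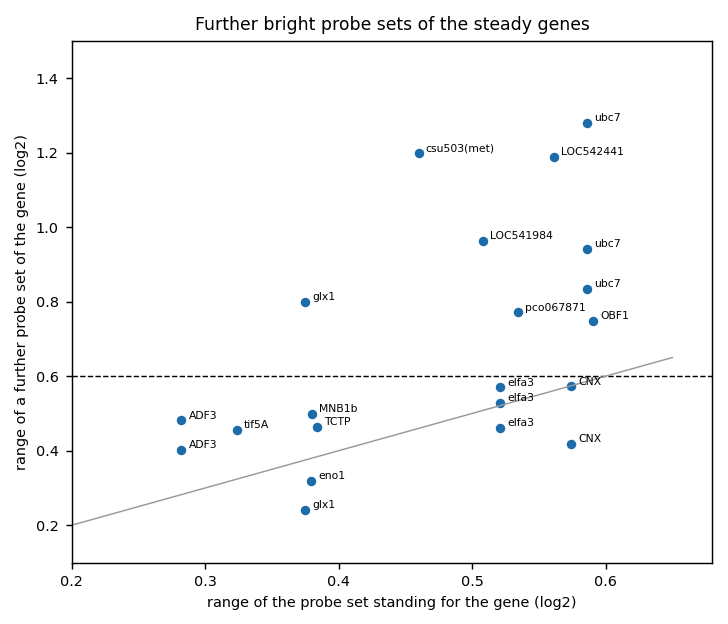
Range over the 10 arrays of the probe set that stands for a gene (x axis) against the range of each further bright probe set of the same gene (y axis), both log2. The dashed line marks 0.6 and the grey line equal ranges; 12 of the 21 points lie under the dashed line, and the 3 points of ubc7 lie above it.

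Some families were steady as a whole: both enolase, both eIF5A and both adenine nucleotide translocator genes were members. In others, steady genes stood beside wider ones. The families were put together from gene symbols after the values were known, so they are described without a test. In cytosolic glyceraldehyde-3-phosphate dehydrogenase, gpc1 and gpc2 had ranges of 0.464 and 0.326, and gpc3 and gpc4 had 2.05 and 2.02. The gene gpc3 averaged 10.57 in F2 and 8.93 in Cm484, and gpc4 10.48 in F7025 and 9.04 in F7033. Of 6 beta-tubulin genes tub3 was the steady one, and tub4, tub5, tub6, tub7 and TUB2 had ranges of 0.993 to 2.47.

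Translation families other than eIF5A also held wider genes. The acidic ribosomal protein gene rpp2b had a range of 0.277 beside 0.743 to 2.44 in the other 6 genes of its family, of which rpp2a-4 averaged 9.14 in F7033 and 11.49 in Cm484. The eIF4E relative eIFiso-4E, for another cap-binding factor, had a range of 1.11, and the elongation factor genes EF1A and elfa5 0.692 and 0.734. Outside translation, trxh2 had a range of 1.21, copz2 of 0.982, AMADH2 of 1.41 and MNB1a of 1.34, against 0.566, 0.499, 0.565 and 0.38 in the steady relatives trxh1, copz1, AMADH1b and MNB1b. Of 4 aquaporin genes of the PIP1 type PIP1-1 alone was steady, and the ranges of the other 3 ran from 1.52 to 2.83. In the serine acetyltransferase family, sat2 and sat1 were dimmer, with means of 6.09 and 3.17 and ranges of 3.24 and 2.74.

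**Figure D5:**
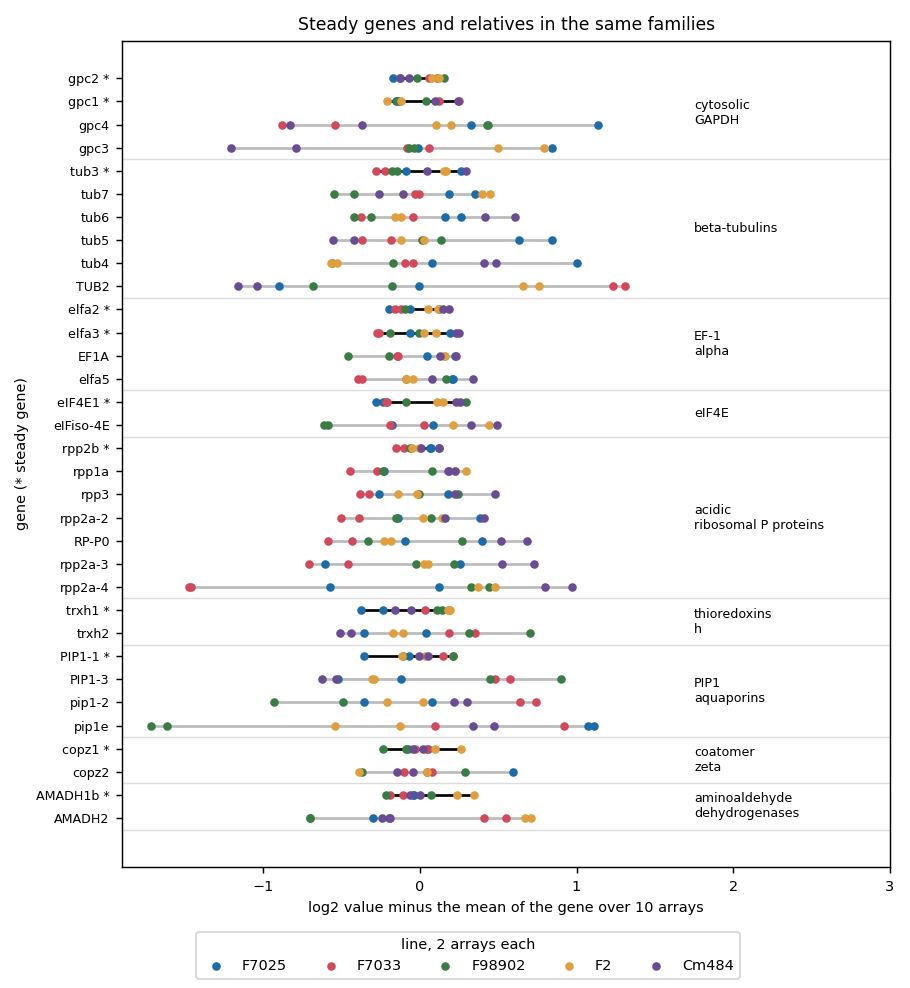
Log2 values of steady genes (asterisks, black bars) and their annotated relatives (grey bars) in 9 families, as deviations from the mean of each gene over the 10 arrays; points are single arrays, coloured by line, and bars span lowest to highest. The steady genes span 0.277 to 0.579, and the relatives up to 2.83, in pip1e.

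Lists of whole pathways were matched by symbol patterns, which miss some genes. Members are read among the bright genes of each list, against 16.8% of bright named genes. Calls by the F-test are read against 73.9% of tested probe sets, and several lie near that share. Of 16 annotated genes of the kind used as expression references, 15 were bright, and 3 were members: gpc1, gpc2 and tub3. The symbols of elfa2 and elfa3, both members, were matched neither by this list nor by that of translation factors. The others, in order of range, were the alpha-tubulin gene tua4 (0.667), EF1A (0.692), tua6 (0.75), the helicase gene eIF-4A (0.76), TUA1 (0.788), tub7 (0.993), tua5 (0.993), tub6 (1.03), tub5 (1.398), tub4 (1.57), gpc4 (2.02), gpc3 (2.05) and TUB2 (2.47). The limma F-test called 13 of the 16, all but gpc2, tub3 and TUA1. Of 10 translation factors matched by symbol 9 were bright, 3 of them members, and 8 of the 10 were called. Their median range was 0.787, the widest being eIF-5 (1.12), eif3 (1.11) and eIFiso-4E (1.11). Of 15 ribosomal protein genes 12 were bright, 1 of them a member, and 11 of the 15 were called. In this list csu891, RPS21 and rps13 were widest at 7.57, 4.47 and 1.54. The first 2 ranges came from gaps between lines. The gene csu891 read 2.68 and 2.60 in Cm484 and 8.26 to 10.17 in the other lines. RPS21 read 9.30 to 10.33 in F7025 and Cm484 and 5.86 to 6.04 in the others. The cause of these gaps was not tested. Of 17 glycolysis and fermentation genes 13 were bright, 4 of them members, and 13 of the 17 were called, with a median range of 1.52. In that list frk1, for fructokinase, had a range of 4.52, pdc2, for pyruvate decarboxylase, 2.46 and adh1, for alcohol dehydrogenase, 2.14. Their means were 8.46, 4.00 and 12.02. Many of the widest genes named from these and the following lists had means under 9, where ranges were wider in general. The median range of named genes was 1.73 for means of 4 to 6 and 1.14 for 9 to 10.

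The same shares, 16.8% of bright named genes as members and 73.9% of tested probe sets called, stand beside the lists that follow. Of 21 cytoskeletal genes 12 were bright, 4 of them members. Of the 16 tested 12 were called, and 5 of the 21 averaged under 4. The widest were TUB2 (2.47), the gamma-tubulin gene TUBG2 (1.58) and tub4 (1.57). Of 22 genes of chaperones and folding 5 were bright, 2 of them members, CNX and pdi6, and 11 of 20 tested were called. Heat shock genes were the widest: hsp18f had a range of 3.72, hsp101 of 3.39 and hsp22 of 2.86. Of 27 pumps and channels 10 were bright, 3 of them members, ATP2, ANT1 and ANT2. The member PIP1-1 was not matched by the patterns of this list. The F-test called 19 of 20 tested. The widest in the list were the aquaporin genes PIP2-4 (6.91), TIP2-1 (6.07) and pip2b (4.78). Of 8 genes of RNA binding 2 were bright, grp1 was the member, and 3 of 6 tested were called. The ubiquitin list held ubc7 alone, which was not called.

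Probes that can bind several transcripts were somewhat more frequent among the steady genes, but the counts are small and the difference was not tested. Type x probe sets were 3 of 49 (6.12%), against 2 of 243 (0.823%) in the other bright named genes and 3.58% of all probe sets. Type s probe sets were 3 of 49 (6.12%), against 10 of 243 (4.12%) and 1.90% of all. The 6 genes concerned were elfa2, elfa3 and ubc7, and grp1, gpc1 and tif5A. For these the signal may sum several gene copies, and the part of this in their small ranges was not tested. The other 43 were read by plain probe sets (32) or by sets shared among transcripts of 1 gene (11).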

How the data were processed

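The deposited table held 1 log2 value per probe set and array, made with GCRMA per the submitters' processing notes, with no version stated. The log2 scale was read from the values (1.35 to 14.55). GCRMA normalizes arrays to each other and summarises probes by probe set, so a change common to all genes of a line cannot be seen. The table had 17734 probe sets, of which 113 array controls were left out. The annotation gave 1 gene to 1452 probe sets, several to 1 and none to 16281. Of the 49 genes 48 were matched by gene identifier to the B73 reference gene table (version 5.0).

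The test took probe sets that reached 4 (log2) on at least 2 arrays and used limma 3.58.1 in R 4.3.3 (lmFit, eBayes with a variance trend) with line as the only term, 5 residual and 3.09 prior degrees of freedom, and Benjamini-Hochberg adjustment over the 11067 tested. The fit was tested on simulated data. Summaries used Python 3.11.15, pandas 2.3.3 and matplotlib 3.10.9. The number of arrays limits the precision.

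Genes were named by this rule: all members by role, arrays in full for the 12 of smallest range and the 6 brightest, the 5 nearest each limit, called line differences, and the widest genes of each list. The members, the 12 lists and the tests were chosen with earlier results of these data known, and symbols that the lists matched but that belong elsewhere or are ambiguous were removed after values were seen. The 19 families were also drawn up then. Alternatives were another scaling, other thresholds, filters, variance models, array weights, a replicate block and omitted arrays.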

Additional observations from a re-analysis of the deposited data

How the results depend on the processing

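The set of 49 held 30 genes with a range limit of 0.5, 96 with 0.8, 32 when every probe set of a gene had to qualify and 89 when the limit was put on line means. Omitting 1 array gave 51 to 64 genes, with 48 or 49 of the 49 among them. Leaving out an array cannot widen the range of a probe set, so these omissions could hardly remove a member. Each scaling kept 46 of the 49, and 43 met the rule under every omitted array and both scalings. Without the 3 arrays of least RNA, a setting chosen after seeing the data, the F-test of all probe sets fell from 8176 calls to 4817, that of members from 18 to 1, a gene not among the 18, and members called in a line from 28 to 3. Without a variance trend the last 2 counts were 6 and 15. Omitting 1 array gave 6680 to 8443 calls over all probe sets, 2 to 21 members by the F-test, 11 to 29 in a line, and 12 to 15 further bright probe sets within 0.6. With the replicate block these counts were 8069, 16 and 26, which changed none by more than 1.5 times. The pools share only a number by the labels: deviations of first arrays correlated at −0.38 to 0.37 between lines, over 0.1 in 5 of 10 pairs. The highest, 0.27 to 0.37, were among F98902, F2 and Cm484, whose second arrays had 20 µg of RNA; the part of RNA amount was not tested. Both scalings left all these counts within 1.5 times, as did the filters and array weights for the F-tests. For members by the F-test they gave 12 without a filter and 27 with weights, at that limit. The count of members called in a line was not made under them. Of the 38 line differences, 26 stayed past the threshold without a filter, 38 with the filter at 6 and 29 with array weights. The weights kept 0 of 5 in F98902 and 2 of 6 in F7025. A line left with 1 array is assumed to vary like the others.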

Other observations

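Some lists had no member among the steady genes, but they held few bright genes, and 16.8% of bright named genes were members. Of 5 histone genes 1 was bright, his1a, with a mean of 10.9 and a range of 1.65. The limma F-test called all 5, against 73.9% of tested probe sets, and their median range was 2.54, with H1 (3.96), cenH3, for the centromeric histone, (2.90) and his2b5 (2.54) the widest. The means of H1, cenH3 and his2b5 were low, at 5.93, 4.71 and 5.15. Of 8 calcium signalling genes 3 were bright and 5 of 7 tested were called, near that share. Among the bright ones, cal2 came close to the limit with a range of 0.611, while the calmodulin gene CaM1 had one of 1.45. The S-adenosylmethionine synthetase gene sam2, whose product supplies methyl groups, averaged 13.1 with a range of 0.824.

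Small ranges also occurred at lower signals. Of 471 named genes with means from 4 to 9, 29 had a range of 0.6 or less. Of 344 under 4, 229 did, near the floor of the scale.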
